A study of Mus musculus with 14 samples.

Results

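Alpha and beta tubulin genes were followed across the 14 libraries of a study of the embryonic mouse ureteric bud, the epithelial outgrowth that becomes the collecting duct system. The members were taken by gene symbol: Tuba1a, Tuba1b, Tuba1c and Tuba4a encode alpha tubulins, and Tubb2a, Tubb2b, Tubb3, Tubb4b, Tubb5 and Tubb6 encode beta tubulins. They are 10 of the 55487 genes in the count table, and all 10 were among the 16876 genes tested. RNA came from kidneys at E13.5 that were dissociated, and GFP-positive cells were sorted. The Hoxb7-Cre transgene supplies both that GFP and the Cre recombinase, so every group carries it, and it acts in the ureteric bud lineage. There were 5 libraries labelled Cep120 KO (numbered 2, 4, 5, 6 and 7), whose titles mark them as homozygous, and 3 controls of the Cep120 line. A second line gave 3 Pkd1 KO libraries, also titled as homozygous, and 3 controls. Controls of both lines are labelled WT by genotype but heterozygous by title. Cep120 is a centriole protein needed to build centrioles, and the study asked what changes when centrosomes are lost. Pkd1 encodes polycystin-1, the protein altered in most dominant polycystic kidney disease.

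Microtubules are polymers of alpha-beta tubulin heterodimers, and in animal cells the centrosome is their main nucleating site. Several genes encode each subunit, and their products, called isotypes, differ mostly in the carboxy-terminal tail, where motors and modifying enzymes bind. Cells also hold tubulin mRNA in check by autoregulation: when free dimers are plentiful, the factor TTC5 recognises the start of a nascent tubulin chain on the ribosome and its mRNA is degraded.

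The coding sequences show how alike the members are, which bears on how far reads can be told apart. The first 30 coding bases of 4 members follow, read from GENCODE M21 (GRCm38) transcripts, with the first 4 codons in capitals, the stretch read in autoregulation.
Tuba1b: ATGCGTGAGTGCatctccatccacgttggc
Tuba4a: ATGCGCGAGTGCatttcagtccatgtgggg
Tubb4b: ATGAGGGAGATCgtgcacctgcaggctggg
Tubb5: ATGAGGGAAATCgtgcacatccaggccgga
The last 60 coding bases, which encode the tail that sets isotypes apart, are given for 5 members with the stop codon in capitals.
Tuba1c: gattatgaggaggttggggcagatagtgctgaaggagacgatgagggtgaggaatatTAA
Tuba4a: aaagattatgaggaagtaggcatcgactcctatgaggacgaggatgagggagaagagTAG
Tubb3: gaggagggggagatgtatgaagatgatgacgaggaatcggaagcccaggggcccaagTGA
Tubb4b: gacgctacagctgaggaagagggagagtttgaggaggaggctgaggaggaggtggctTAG
Tubb5: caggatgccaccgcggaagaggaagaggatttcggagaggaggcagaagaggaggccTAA
The codon before the stop is tat in Tuba1c, which codes for tyrosine, the residue that is removed and put back in the detyrosination cycle. In Tuba4a it is gag, which does not code for tyrosine.

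Tuba1b (chromosome 15, 98931425 to 98934565), Tuba1a (chromosome 15, 98949837 to 98953703) and Tuba1c (chromosome 15, 99029891 to 99038110) lie in a cluster, with coordinates from GENCODE M21 on GRCm38. Their coding sequences were 98.3% identical between Tuba1a and Tuba1b, 97.9% between Tuba1b and Tuba1c and 97.1% between Tuba1a and Tuba1c. Tuba4a (chromosome 1, 75214228 to 75219865) was 84.7 to 85.2% identical to these. Tubb2a (chromosome 13, 34074274 to 34078007) and Tubb2b (chromosome 13, 34126748 to 34130466) were 96.5% identical. Tubb3 (chromosome 8, 123411424 to 123422015), Tubb4b (chromosome 2, 25222160 to 25224702), Tubb5 (chromosome 17, 35833921 to 35838306) and Tubb6 (chromosome 18, 67390717 to 67402749) were 80.2 to 85.7% identical to each other.

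Each member was represented by its transcript with the longest coding sequence. Sequence shared with another gene was measured as the share of its 50-base windows that occur in transcripts of another gene on either strand. It was 83.1% for Tuba1b, 75.5% for Tuba1a and 61.0% for Tuba1c. Tubb4b had 55.5%, of which 0.0% lay in another member, and its main partner was the processed pseudogene Tubb4b-ps1. For Tubb2a and Tubb2b it was 49.6% and 39.3%, mostly with each other. For Tuba4a the transcript was Tuba4a-202, which held 8.55% of the gene's TPM over the libraries. Its share was 48.8%, nearly all with Stk16, a kinase gene that overlaps Tuba4a. The library kit does not mark strand, so reads from that overlap cannot be told apart. Tubb5, at 0.115%, and Tubb3 and Tubb6, at 0.0%, shared next to nothing. How the authors assigned reads that fit several genes is not given in the sources used here, so the split within Tuba1a, Tuba1b and Tuba1c and between Tubb2a and Tubb2b is uncertain, while their sums depend on it less.

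**Figure D1:**
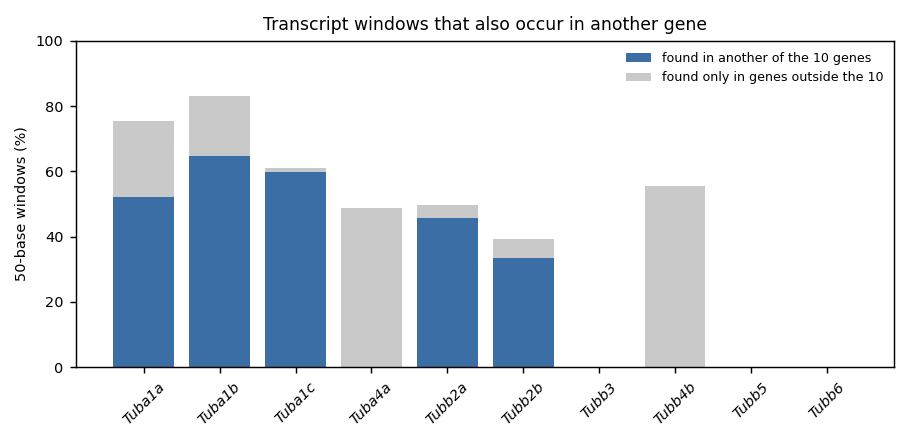
Share of 50-base windows (vertical axis, percent) that also occur in another gene, in each member's transcript with the longest coding sequence. Blue marks windows found in another of the 10 genes and grey marks windows found only outside them. Tuba1b stands at 83.1%, while Tubb3, Tubb5 and Tubb6 stand at or near 0.0%.

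Library totals lay between 11347657 and 27967596 counts. Nothing in the labels ties a replicate to an embryo, a litter or a pool, so a p-value here reflects library-to-library spread, which may be technical. Cep120 itself stood at 7.87 to 21.2 CPM (counts scaled to a common library size) in the libraries labelled Cep120 KO and at 6.41 to 10.6 CPM in their controls. Library 2 was at 7.87 CPM and libraries 4 to 7 were at 13.1 to 21.2 CPM. The log2 fold change was 0.83 (SE 0.31) and did not pass (edgeR adjusted p = 0.0832). These counts thus do not bear out that label, but reads outside the deleted exons would remain, so they cannot test it. Each direction given for this group rests on the label. Pkd1 stood at 2.39 to 2.68 CPM in the Pkd1 KO libraries and at 3.34 to 4.6 CPM in their controls. Libraries 4 to 7 labelled Cep120 KO stood apart: the 10% of genes with the longest transcripts lay 1.19 to 1.32 above the 10% with the shortest (log2, relative to the controls), against -0.297 to 0.455 in the other libraries. The summed ureteric bud markers (14 genes) were at 1390 and 1975 CPM in libraries 6 and 7, against 3381 to 3913 CPM in the other libraries. Single markers of this list moved in different directions. Calb1 was low in libraries 4 and 5 (874 and 942 CPM, Cep120-line controls 1580 to 1788 CPM), while Cdh1 was high (305 and 338 CPM, controls 107 to 146 CPM). In libraries 6 and 7 Pax2 was high (61.9 and 54.6 CPM, controls 11.1 to 15.2 CPM). Hoxb7, at 77.4 and 91.3 CPM in libraries 6 and 7, kept within the control range of 69.7 to 93.6 CPM. Summed nephron progenitor markers (9 genes) were at 845 and 650 CPM there, against 32.7 to 69.8 CPM elsewhere. Summed stroma markers (9 genes) were at 153 and 160 CPM there, against 3.6 to 75.5 CPM elsewhere. Meis1 gave 63.9 and 55.5 CPM of these sums in libraries 6 and 7, and Col1a1 gave 56.8 CPM in library 7. Pdgfra, Pdgfrb and Lum in libraries 6 and 7 lay within the range of the other libraries. The part of these library differences in what follows was not tested beyond the fits without those libraries or with length and GC offsets.

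Levels between genes are compared in TPM, a value per transcript length that the authors deposited. Over the 6 controls Tuba1b, a widely expressed isotype, had the highest mean, 2725 TPM, with a range of 2581 to 3040. Tuba1a, the main isotype of young neurons and abundant in embryos, had 2119 TPM (1820 to 2793). Tubb5, the leading beta tubulin of dividing cells, had 1918 TPM (1563 to 2258). These neighbours overlap in range. Below a gap came Tubb4b, a broadly expressed isotype also used in cilia, at 717 TPM (648 to 819), and Tuba1c at 666 TPM (556 to 864), which overlap each other. Tubb2b stood alone at 113 TPM (92.5 to 132) if Tubb3 is left aside. Tuba4a, an isotype of platelets and muscle, had 39.9 TPM (29.0 to 65.2), and Tubb2a had 39.3 TPM (30.9 to 55.0). Tubb3, the isotype used as a neuronal marker, averaged 36.5 TPM over a range of 12.8 to 134, and Tubb6 had 15.3 TPM (8 to 27.1). Tuba1a, Tuba1b and Tubb5 together made up 77.5 to 82.9% of the members' TPM in every library.

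In the libraries labelled Cep120 KO, Tuba1b and Tuba4a were lower than in their controls, and no member was called higher. Tuba1b averaged 2938 ± 1060 CPM against 5374 ± 585 CPM, and Tuba4a 25.6 ± 12.8 CPM against 82.5 ± 34.5 CPM (SD, n = 5 libraries labelled Cep120 KO and 3 controls). Tubb4b, Tuba1c, Tuba1a and Tubb5 had fold changes of the same sign that did not pass. Tubb6 had a positive one that did not pass either. Of the 10 members 2 were called, both lower, where 14.7% of all genes tested were called and 6.26% were called lower (edgeR quasi-likelihood test, p adjusted by Benjamini-Hochberg, threshold 0.05). At an unadjusted p under 0.05 there were 5 members, against 33.7% of all genes. The median log2 fold change of the members was -0.82, beside 0.12 for all genes tested. DESeq2 called 3 members where it called 24.9% of all genes, limma-voom 7 where it called 39.5%, and limma-trend on the deposited log2 values 4 where it called 18.9%. In bulk RNA, fewer cells of a type and less RNA per cell cannot be told apart.

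Tuba1b stood at 4740, 2817, 2820, 2224 and 2091 CPM in libraries 2, 4, 5, 6 and 7 labelled Cep120 KO, against 5447, 5920 and 4756 CPM in controls 1, 2 and 3. The groups did not overlap, but library 2 lay just under the lowest control while libraries 4 to 7 lay well under all controls. Its log2 fold change was -0.87 (SE 0.23; edgeR quasi-likelihood test, adjusted p = 0.0321). With library 2 as the sole KO library it was -0.16 (edgeR adjusted p = 0.624), and without libraries 6 and 7 it was -0.64 (edgeR adjusted p = 0.0596). The call was also lost with offsets for transcript length and GC content, at -0.71 (edgeR adjusted p = 0.0715). Leaving out any library of the Cep120 line other than library 2 lost it as well, with edgeR adjusted p-values of 0.0512 to 0.118. So did a fit of the Cep120 line alone (edgeR adjusted p = 0.133). Summing libraries 4 and 5 also lost it, where Tuba4a stayed called and 8.32% of all genes were called. Libraries 4 and 5 had nearly the same values, at 2817 and 2820 CPM here and 754 and 754 CPM for Tuba1c. Their independence was not tested, so n = 5 may overstate the replication. Without any one Cep120-line control 0.0112 to 0.0338% of all genes were called, and in the fit of the line alone 0.0% were.

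Tuba4a stood at 35.5, 32.2, 36.8, 10.3 and 13.3 CPM in libraries 2, 4, 5, 6 and 7 labelled Cep120 KO, against 73.5, 121 and 53.3 CPM in controls 1, 2 and 3. All 5 lay below all 3 controls, library 2 included. The log2 fold change was -1.69 (SE 0.37; edgeR quasi-likelihood test, adjusted p = 0.0290). It was -1.25 without libraries 6 and 7 (edgeR adjusted p = 0.0272) and, with offsets for length and GC, -1.72 (edgeR adjusted p = 0.0441). With library 2 alone it was -1.20 and did not pass (edgeR adjusted p = 0.251). Without control 2 it was -1.31 (edgeR adjusted p = 0.0956), and it missed the threshold also without control 1 (0.114), control 3 (0.0922) or library 7 (0.0539) and in a fit of the Cep120 line alone (0.133).

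Tuba4a shares its locus with Stk16 and is an isotype of platelets, so both were read beside it. Stk16 stood at 51.1, 32.2, 31.7, 103 and 105 CPM in libraries 2, 4, 5, 6 and 7 labelled Cep120 KO, against 36.0, 47.1 and 47.1 CPM in the controls. Its log2 fold change of 0.58 (SE 0.37) did not pass (edgeR adjusted p = 0.285). Tuba4a and Stk16 summed gave 64.4 to 118 CPM in the libraries labelled Cep120 KO and 100 to 168 CPM in the controls, ranges that overlap. The 8 platelet and megakaryocyte markers summed to 2.23 to 5.48 CPM in the libraries labelled Cep120 KO. They summed to 78.1, 489 and 5.59 CPM in controls 1, 2 and 3, the same order as Tuba4a in these 3 libraries. In control 3, where these markers were near the level of the libraries labelled Cep120 KO, Tuba4a still lay above all 5 of those libraries. The order was the reverse in Pkd1 KO. Libraries 1, 2 and 3 there had marker sums of 4.44, 5.2 and 78.1 CPM and Tuba4a at 61.1, 56.5 and 51.4 CPM. Pkd1-line controls 1, 2 and 3 had sums of 2.49, 21.8 and 3.16 CPM and Tuba4a at 61.4, 62.5 and 57.6 CPM. The summed macrophage and leukocyte markers (10 genes) were 22.0 to 36.7 CPM in the libraries labelled Cep120 KO and 85.9 to 90.3 CPM in the Cep120-line controls. Coro1a alone gave 9.24 to 18.1 CPM and 36.7 to 54.5 CPM of these sums. In Cep120-line control 2 Csf1r, Cd68 and C1qb, at 1.93, 0.862 and 3.24 CPM, lay below libraries 6 and 7 labelled Cep120 KO. Ptprc, Lyz2, Fcer1g and Tyrobp lay above them in that control. The part of these markers in the Tuba4a difference was not tested.

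Tubb4b lay close to the threshold. It stood at 1216, 629, 601, 388 and 364 CPM in libraries 2, 4, 5, 6 and 7 labelled Cep120 KO, against 1191, 1365 and 1133 CPM in the controls. Library 2 lay among the controls and libraries 4 to 7 lay below them. Its fold change was -0.94 on the log2 scale (SE 0.30; edgeR adjusted p = 0.0513). It passed with DESeq2's size factors at -0.96 (edgeR adjusted p = 0.0477), while with library 2 alone it was 0.00 (edgeR adjusted p = 0.999).

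Tubb5 stood at 6713, 2874, 2963, 1873 and 1658 CPM in libraries 2, 4, 5, 6 and 7 labelled Cep120 KO, against 5322, 5304 and 4506 CPM in the controls. Library 2 lay above every control, and the other libraries lay below all of them. Tubb5 has almost no sequence in common with another gene, so its values do not rest on how shared reads were split. The log2 fold change was -0.65 (SE 0.35; edgeR adjusted p = 0.204).

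Tuba1a showed the same arrangement, with 4967, 2130, 2193, 1148 and 1047 CPM in libraries 2, 4, 5, 6 and 7 labelled Cep120 KO, against 3922, 3707 and 4171 CPM in the controls. Library 2 again lay above every control. On the log2 scale the fold change was -0.78 (SE 0.39; edgeR adjusted p = 0.173). Tuba1c stood at 1280, 754, 754, 334 and 304 CPM in libraries 2, 4, 5, 6 and 7 labelled Cep120 KO, against 1214, 1291 and 1307 CPM in the controls. Its log2 fold change was -0.89 (SE 0.36; edgeR adjusted p = 0.103). In Tuba1a, Tuba1c, Tubb4b and Tubb5 alike, libraries 6 and 7 were lowest, libraries 4 and 5 lay between, and library 2 lay among or above the controls. Without library 2 edgeR called 7 members, all lower, where it called 34.0% of all genes and 14.8% lower. They were Tuba1a, Tuba1b, Tuba1c, Tuba4a, Tubb3, Tubb4b and Tubb5.

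Tubb3, Tubb2a, Tubb2b and Tubb6 did not pass the test either. Tubb3 stood at 28.5, 12.6, 11.8, 2.58 and 7.16 CPM in libraries 2, 4, 5, 6 and 7 labelled Cep120 KO, against 27.1, 38.7 and 30.5 CPM in the controls (log2 fold change -1.37, SE 0.66, edgeR adjusted p = 0.163). The 12 neural and neural crest markers summed to 29.3, 212, 215, 366 and 314 CPM in those libraries, against 37.7, 60.4 and 37.9 CPM in the controls. Libraries 4 to 7, where Tubb3 was lowest, thus had the highest marker sums. Most of each sum was Ncam1, a cell adhesion gene, and the other 11 markers summed to 3.61, 5.60, 5.95, 62.3 and 45.6 CPM, against 5.64, 9.69 and 3.74 CPM. Their part in the Tubb3 difference was not tested. Tubb2a ranged from 23.1 to 56.3 CPM in the libraries labelled Cep120 KO and from 52.5 to 68.9 CPM in the controls (-0.60, SE 0.29, edgeR adjusted p = 0.157). Tubb2b ranged from 108 to 335 CPM and from 214 to 275 CPM (-0.21, SE 0.28, edgeR adjusted p = 0.630). Tubb6, a minor beta tubulin isotype, stood at 65.8, 96.3, 79.0, 78.7 and 53.5 CPM in libraries 2, 4, 5, 6 and 7 labelled Cep120 KO, against 25.3, 51.7 and 46.2 CPM in the controls. It was the one member whose libraries labelled Cep120 KO all lay above all controls, by 53.5 against 51.7 CPM at the closest. Across all genes tested 6.41% showed such a separation upward and 8.75% downward. The log2 fold change of Tubb6 was 0.86 (SE 0.37; edgeR adjusted p = 0.116). It passed with limma-voom at 1.08 (adjusted p = 0.00717) and in limma on the deposited TPM at 1.48 (adjusted p = 0.0203). These fits called 21.4 and 26.5% of all genes higher, and the median of all genes was 0.42 in the TPM fit. Tubb6 was called in 4 of 13 alternative settings and in 0 of 14 fits that left out one library.

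**Figure D2:**
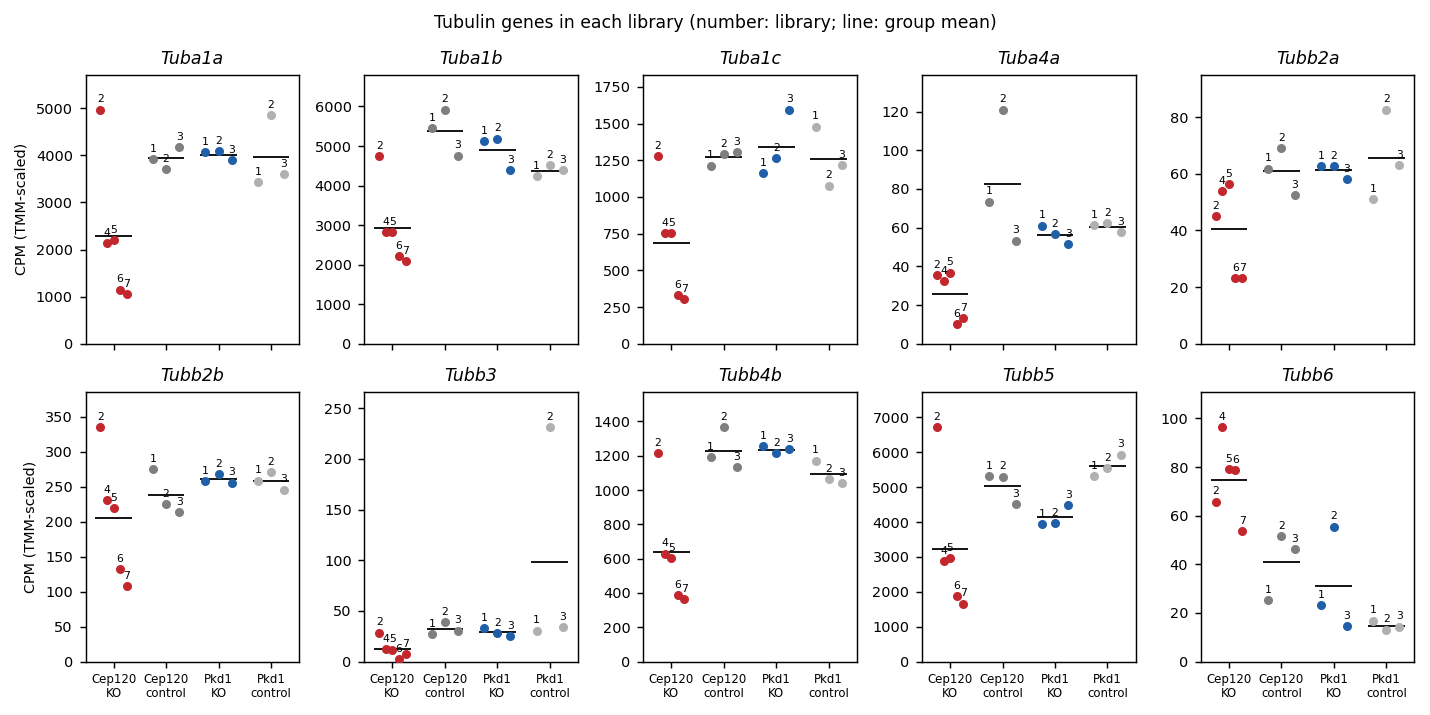
TMM-scaled CPM (vertical axis, linear, one scale per gene) of each member in every library, by group, with the library number beside each point and a line at the group mean. In Tuba1a, Tuba1c, Tubb4b and Tubb5 the point for library 2 labelled Cep120 KO lies with or above the controls and libraries 4 to 7 lie below. Tuba4a is lower in all 5, and in Tubb3 a single Pkd1-line control stands at 231 CPM.

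The summed level of the members does not depend on how reads were divided among them. The 10 genes took 1.76, 1.11, 1.12, 0.792 and 0.749% of all counts in libraries 2, 4, 5, 6 and 7 labelled Cep120 KO, against 1.51, 1.60 and 1.46% in the controls. The alpha tubulins summed to 11022, 5734, 5803, 3716 and 3456 CPM in the libraries labelled Cep120 KO, against 10657, 11038 and 10287 CPM in the controls. The beta tubulins summed to 8404, 3897, 3930, 2497 and 2214 CPM, against 6902, 7054 and 5982 CPM. Alpha and beta sums were thus both low in libraries 4 to 7 and both at or above the control level in library 2. The ratio of the beta to the alpha sum was 0.641 to 0.762 in the libraries labelled Cep120 KO and 0.581 to 0.648 in the controls, which overlap.

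In TPM the gap was narrower. The members summed to 9496, 7110, 7198, 4895 and 4781 TPM in libraries 2, 4, 5, 6 and 7 labelled Cep120 KO, against 7586, 8250 and 7809 TPM in the controls. Libraries 4 and 5 then lay below the lowest control by less than in CPM. The median of the members' log2 fold changes was -0.33 in limma on the deposited TPM, where the median of all genes was 0.42, and -0.66 with length and GC offsets, where it was 0.16. It was 0.02 with library 2 as the sole KO library. In the TPM fit Tuba4a passed at -1.07 (limma adjusted p = 0.0401) and Tuba1b did not at -0.29 (limma adjusted p = 0.0812).

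**Figure D3:**
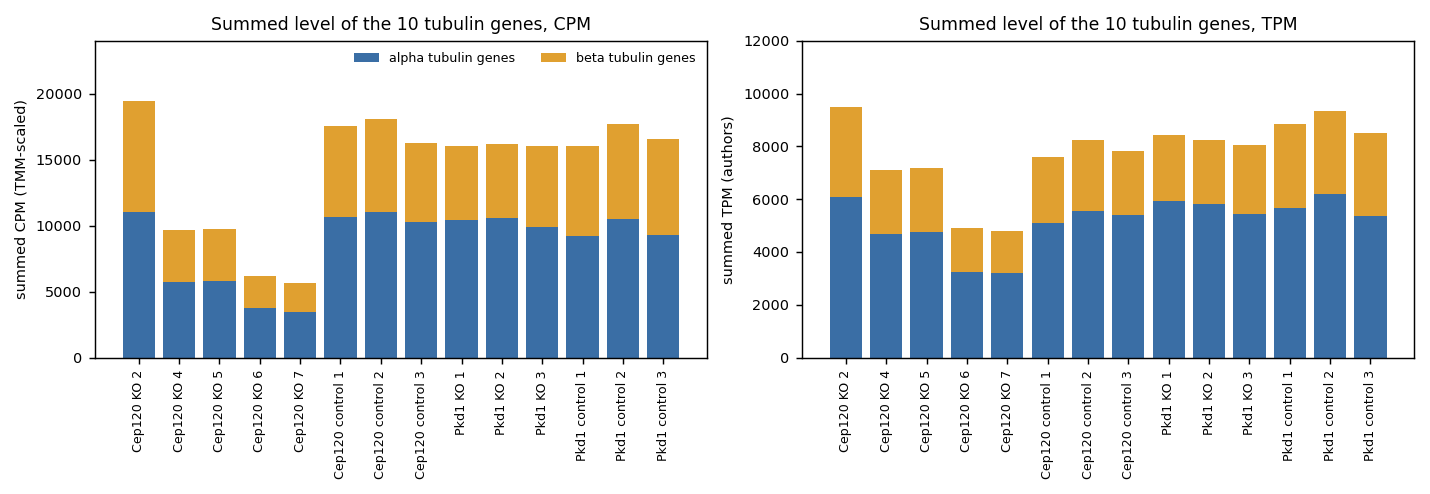
Stacked bars of the summed alpha (blue) and beta (orange) tubulin genes in each library, in TMM-scaled CPM on the left and in the authors' TPM on the right. Libraries 6 and 7 labelled Cep120 KO are lowest on both scales, at 6213 and 5670 CPM, and library 2 is highest, at 19426 CPM.

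Within the alpha tubulins the mix also differed between libraries. Tuba1b made up 44.5, 50.6, 50, 61.0 and 61.7% of the alpha sum in TPM in libraries 2, 4, 5, 6 and 7 labelled Cep120 KO, against 52.4, 54.8 and 47.7% in the controls. The ratio of Tuba1a to Tuba1b was 0.993, 0.718, 0.736, 0.496 and 0.479 in those libraries, against 0.688, 0.599 and 0.831 in the controls. Libraries 6 and 7, with the low summed ureteric bud and high summed nephron progenitor markers given above, had the lowest ratios. They also had the strongest GC trend. Genes of high GC content lay 1.015 and 1.054 above genes of low GC content there (log2), against -0.172 to 0.399 in the other libraries. The ratio also rests on how reads shared by Tuba1a and Tuba1b were split, which is uncertain. The part of markers, GC content or read splitting in these ratios was not tested. Among the beta tubulins Tubb6 made up 1.09, 3.32, 2.71, 4.20 and 3.16% of the beta sum in TPM in libraries 2, 4, 5, 6 and 7 labelled Cep120 KO, against 0.508, 1.00 and 1.03% in the controls. Tubb5 made up 64.1 to 71.0% and 64.6 to 67.2% in the same groups.

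For members other than Tuba4a, transcript values added little to the gene values. One protein-coding transcript held 92.1 to 100.0% of the TPM of each member but Tuba4a. Of Tuba4a, Tuba4a-206 held 46.5%, at 8.86, 13.4, 16, 2.94 and 6.76 TPM in libraries 2, 4, 5, 6 and 7 labelled Cep120 KO, against 12.3, 32.6 and 12.3 TPM in the controls. These ranges overlap.

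In the Pkd1 KO libraries no member was called, and 0.0% of all genes tested were (edgeR quasi-likelihood test, adjusted p = 1 for each member). At an unadjusted p under 0.05 there were 2 members, Tubb3 and Tubb6, against 1.53% of all genes. DESeq2, limma-voom and limma-trend on the deposited log2 values called 0 members as well. They called 3, 1 and 0 genes in all, or 0.0178, 0.00593 and 0.0% of those tested. Tuba1b had 5123, 5186 and 4385 CPM in Pkd1 KO, against 4240, 4510 and 4382 CPM in the controls. Its log2 fold change was 0.16 (SE 0.26).

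Tubb5 stood at 3947, 3969 and 4494 CPM in the Pkd1 KO libraries, against 5321, 5548 and 5932 CPM in their controls. All 3 lay below all controls, as did 6.19% of all genes tested. The log2 fold change was -0.44 (SE 0.39), with an SE that draws on all groups. Fitted on the Pkd1 line alone it was -0.43 (SE 0.07; edgeR adjusted p = 0.194). Tubb4b lay above, with 1258, 1213 and 1237 CPM in Pkd1 KO against 1171, 1062 and 1041 CPM in the controls (log2 fold change 0.18, SE 0.35), as did 4.88% of all genes. The ratio of the beta to the alpha sum in CPM was 0.536, 0.528 and 0.613 in Pkd1 KO, against 0.744, 0.686 and 0.792 in the controls, with no overlap. The Cep120-line controls, at 0.648, 0.639 and 0.581, also lay below all Pkd1-line controls, so a low ratio was not particular to Pkd1 KO.

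The 2 members at a small unadjusted p each turned on single libraries. Tubb3 stood at 33.2, 27.8 and 25.2 CPM in Pkd1 KO, against 30.5, 231 and 34.3 CPM in controls 1, 2 and 3 (log2 fold change -1.78, SE 0.77). Without control 2 it was -0.18 (SE 0.63). The 12 neural and neural crest markers summed to 140 CPM in control 2, against 42.3 and 67.8 CPM in controls 1 and 3 and 32.6 to 48.9 CPM in Pkd1 KO. Without Ncam1 they summed to 53.0 CPM in control 2 and to 4.29 to 8.58 CPM in the other libraries of the line. Their part in this Tubb3 difference was not tested. Tubb6 stood at 23.1, 55.5 and 14.7 CPM in Pkd1 KO, against 16.8, 13.1 and 14.4 CPM in the controls (log2 fold change 1.08, SE 0.40). Without Pkd1 KO library 2 it was 0.35 (SE 0.33). The other members ranged from -0.10 to 0.09 on the log2 scale: Tuba4a and Tubb2a were at -0.10, Tubb2b at 0.01, Tuba1a at 0.02 and Tuba1c at 0.09.

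**Figure D4:**
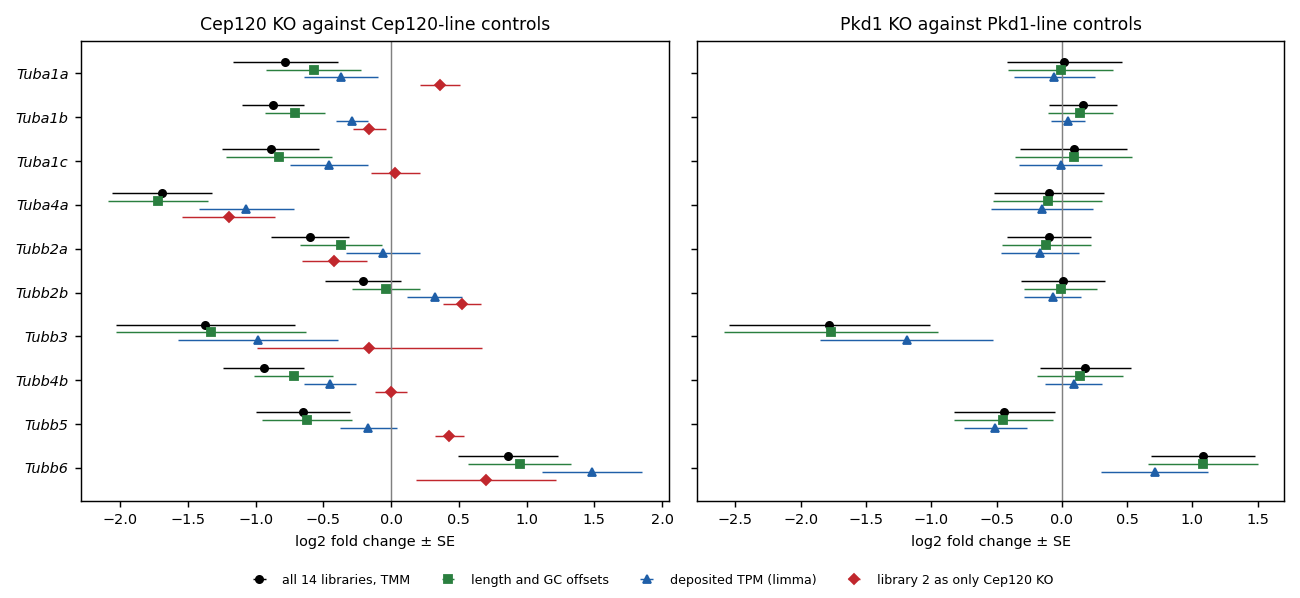
Log2 fold change with its SE (horizontal axis) of each member, for libraries labelled Cep120 KO against their controls (left) and Pkd1 KO against its controls (right), under 4 ways of fitting. On the left Tuba4a stays between -1.72 and -1.07 and Tuba1b between -0.87 and -0.16, while with library 2 as the sole KO library (red, left panel only) Tuba1a, Tuba1c, Tubb2b, Tubb4b and Tubb5 lie at or above 0.00.

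Whether the KO effects differ between the lines was tested directly. For none of the members did the effect of Cep120 minus that of Pkd1 pass (edgeR quasi-likelihood test; 0.0% of all genes tested were called). At an unadjusted p under 0.05 there were 3 members, against 20.4% of all genes: Tuba1b at -1.03 (SE 0.35, adjusted p = 0.177), Tuba4a at -1.59 (SE 0.57, adjusted p = 0.181) and Tubb4b at -1.12 (SE 0.46, adjusted p = 0.206). DESeq2 called 0 members, where it called 4.28% of all genes, and limma-voom called 5, where it called 26.0% of all genes. Without library 2 labelled Cep120 KO edgeR called 4 members, Tuba1a, Tuba1b, Tuba1c and Tubb4b, where it called 18.7% of all genes.

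Between the control groups no member was called, where 0.124% of all genes tested were (edgeR quasi-likelihood test). At an unadjusted p under 0.05 there was 1, Tubb6, against 4.89% of all genes. Tubb6 stood at 25.3, 51.7 and 46.2 CPM in the Cep120-line controls, against 16.8, 13.1 and 14.4 CPM in the Pkd1-line controls. The groups did not overlap, and the log2 difference was 1.48 (SE 0.41; edgeR adjusted p = 0.500). It passed in a fit of these 2 groups alone, at 1.46 (SE 0.25; edgeR adjusted p = 0.0257). DESeq2, limma-voom and limma-trend on the deposited log2 values put it at adjusted p = 0.0585, 0.0844 and 0.633 and called 0 members, where they called 0.498, 0.776 and 0.172% of all genes. The other member without overlap was Tuba1b, at 4756 to 5920 CPM against 4240 to 4510 CPM (log2 difference 0.30, SE 0.26), where 11.5% of all genes lay apart in that direction.

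Genes that work with tubulin were counted from lists drawn up for this set of members. In the libraries labelled Cep120 KO, 6 of 20 tubulin folding genes fell and 0 rose, where 6.26% of all genes were called lower, and the list's median was -0.43 beside 0.12 for all genes. Among them Pfdn4 and Pfdn5, subunits of the prefoldin chaperone that hands new tubulin chains to the CCT complex, fell by 0.84 (SE 0.18; edgeR adjusted p = 0.0290) and by 0.77 (SE 0.20; edgeR adjusted p = 0.0318) on the log2 scale. Pfdn4 stood at 56.8, 39.9, 36.6, 40.6 and 33.6 CPM in libraries 2, 4, 5, 6 and 7 labelled Cep120 KO, against 79.1, 68.7 and 75.6 CPM in the controls. Tbca, a cofactor that holds free beta tubulin, fell by 0.84 (SE 0.19; edgeR adjusted p = 0.0290). It stood at 155, 105, 103, 96.8 and 79.0 CPM, against 216, 174 and 190 CPM. The Pkd1-line controls were at 133, 171 and 171 CPM for Tbca and at 49.4, 70.8 and 65.0 CPM for Pfdn4. Between the control groups edgeR called 0 of the 20. Without overlap, 8 lay higher in the Cep120-line controls, where 11.5% of all genes did, and 1 lay lower. In place of 6 calls there were 2 without libraries 6 and 7, where 2.98% of all genes were called lower, and 0 with library 2 alone or with length and GC offsets. In limma on the deposited TPM 3 folding genes were called higher and 0 lower, where 26.5% of all genes were called higher. Leaving out one library at a time gave 0 to 14 calls lower, with 0 without library 7 or any one Cep120-line control and 14 without library 2, where 14.8% of all genes were called lower.

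Of 26 genes of microtubule stability and dynamics 6 rose and 0 fell, where 8.40% of all genes were called higher, and the median was 0.67. Camsap1, which protects free minus ends, rose by 1.78 (SE 0.40; edgeR adjusted p = 0.0290). It stood at 10.2, 29.5, 33.0, 38.9 and 32.7 CPM in libraries 2, 4, 5, 6 and 7 labelled Cep120 KO, against 11.2, 9.81 and 4.24 CPM in the controls. Map4, a lattice-binding protein, rose by 1.94 (SE 0.45; edgeR adjusted p = 0.0291), and Ckap5, a polymerase of plus ends, by 1.54 (SE 0.36; edgeR adjusted p = 0.0299). Map4 was at 8.72 CPM and Ckap5 at 19.9 CPM in library 2, within the range of the controls (6.69 to 12.6 and 19.2 to 22.5 CPM), while libraries 4 to 7 were at 43.1 to 48.3 and 66.9 to 79.0 CPM. With length and GC offsets, where 1.67% of all genes were called, and with library 2 alone, 0 of the 26 were called. Without libraries 6 and 7 there were 3 calls, where 3.44% of all genes were called higher. Leaving out one library at a time gave 0 to 14, with 14 without library 2, where 19.2% of all genes were called higher, and 0 without library 6, library 7 or any one Cep120-line control. In the Cep120-line controls the list lay lower than in the Pkd1-line controls, with a median of -0.35 beside -0.01 for all genes. Of the 26, edgeR called 0 between these groups (4 at an unadjusted p under 0.05, against 4.89% of all genes). Without overlap 6 lay lower and 0 higher. Ckap5 was at 26.5, 28.6 and 37.7 CPM in the Pkd1-line controls, above the Cep120-line controls. For Map4 and Camsap1 the control groups overlapped. Libraries 4 to 7 lay above both control groups for each of these genes.

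Of 19 tested tubulin modifying enzyme genes (22 in the list) 2 rose and 0 fell, a share near the 8.40% of all genes called higher. Ttll4, a glutamylase, rose by 0.69 (SE 0.21; edgeR adjusted p = 0.0434) and Vash2, a detyrosinating carboxypeptidase, by 1.09 (SE 0.33; edgeR adjusted p = 0.0444). Ttll4 stood at 14.5, 22.2, 23.9, 19.5 and 18.7 CPM in libraries 2, 4, 5, 6 and 7 labelled Cep120 KO, against 12.1, 11.1 and 13.6 CPM in the controls. The Pkd1-line controls, at 22.3, 21.6 and 15.1 CPM, lay near the libraries labelled Cep120 KO. Vash2 stood at 25.5, 24.7, 27.3, 49.7 and 71.8 CPM in libraries 2, 4, 5, 6 and 7 labelled Cep120 KO, against 18.2, 15.7 and 22.4 CPM in the controls. Both calls were lost without libraries 6 and 7, with library 2 alone and with length and GC offsets. Leaving out one library at a time gave 5 calls higher and 1 lower without library 2, 1 higher without library 4 or 5, and 0 without any other library, those of the Pkd1 line included. In the list of gamma, delta and epsilon tubulin and gamma-tubulin complex genes edgeR called 0 of 12 (1 at an unadjusted p under 0.05), DESeq2 0 and limma-voom 3. Of all genes these called 14.7%, 33.7% at the unadjusted p, 24.9% and 39.5%, so the list was called no more often than genes at large. The smallest p was that of Tubgcp5, at 0.55 (SE 0.23; edgeR adjusted p = 0.111). Of 5 autoregulation genes, the Ttc5 pathway, edgeR called 0 (2 at an unadjusted p under 0.05), DESeq2 1 and limma-voom 2, shares near those of all genes. Scaper, which links TTC5 to the deadenylase, had the smallest p, at 1.39 (SE 0.49; edgeR adjusted p = 0.0669).

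Of 6 further alpha and beta tubulin genes 3 were tested and 0 were called by edgeR (1 at an unadjusted p under 0.05), DESeq2 or limma-voom. That gene was Tubb1, the beta tubulin of platelets (edgeR adjusted p = 0.0658). It had 0, 0, 2, 8 and 19 reads in libraries 2, 4, 5, 6 and 7 labelled Cep120 KO, against 31, 388 and 0 reads in controls 1, 2 and 3. Control 2, with the most, is also the library with the highest platelet marker sum and the highest Tuba4a. Pkd1 KO library 3 had 74 Tubb1 reads and a platelet marker sum of 78.1 CPM, but the lowest Tuba4a of its group, 51.4 CPM. In the Pkd1 KO comparison 0 genes of any of these lists were called by edgeR, DESeq2, limma-voom or limma-trend. At an unadjusted p under 0.05 edgeR gave 4 of the 26 genes of microtubule stability and dynamics, against 1.53% of all genes, and 0 of the other lists. The smallest p of the 26 was that of Stmn3, at -4.77 (SE 1.52). It stood at 31.1 CPM in Pkd1-line control 2, against 1.17 and 0.226 CPM in controls 1 and 3 and 0 to 0.874 CPM in Pkd1 KO.

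For each member the gene outside the family with the most similar profile was taken as the one with the smallest root-mean-square difference in centred log2 CPM over the 14 libraries. Tuba1b was closest to Magohb (0.09, where its own spread was 0.47), Tubb4b to Ppil3 (0.10, spread 0.63), Tubb2b to B4galt6 (0.13, spread 0.41) and Tuba1a to Tspan6 (0.14, spread 0.70). Tubb2a was closest to the pseudogene Gm8186 (0.15, spread 0.51), Tuba1c to Thg1l (0.16, spread 0.72) and Tubb5 to Vmp1 (0.18, spread 0.59). Tuba4a (Gm43123, 0.27, spread 0.90), Tubb6 (9230114K14Rik, 0.51, spread 0.99) and Tubb3 (Shisal2b, 0.59, spread 1.39) had less close neighbours. Within the family Tubb4b was equally near to Tuba1a, Tuba1b and Tuba1c (0.20 each), and the farthest pair was Tubb3 and Tubb6 (2.16). The points share library, depth and composition, so these distances describe these libraries only.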

How the data were processed

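Ureteric bud cells were sorted, and a SMARTer Ultra Low kit, which does not mark strand, made the complementary DNA, per the labels' protocols. The submitters' processing notes name DRAGEN and mm9, with no role or version. The authors deposited estimated counts per gene, TPM values per gene and per transcript, and log2 values of scaled counts. Of 55774 lines, 287 repeated records were dropped. Estimated counts were rounded, which changed no total by over 0.000338%. They entered edgeR 4.0.16 (R 4.3.3): filterByExpr at a minimum count of 10, TMM scaling, and 1 quasi-likelihood fit of 4 group means with 10 residual degrees of freedom, Benjamini-Hochberg adjusted over 16876 genes and called under 0.05. CPM values are TMM-scaled. The script was tested on simulated data.

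Alternatives were DESeq2 1.42.0, limma 3.58.1 (voom; trend on the deposited log2 values; log2 of TPM plus 1), other scaling and filters, smooth offsets for length and GC (mgcv 1.9.3) and leaving out libraries. The fit on TPM was added after the data were seen. All members are named, with up to 3 genes per list by smallest adjusted p. Members and lists were chosen with earlier results of these data known. Gene models and coding sequences are from GENCODE M21 (GRCm38), not from the submitters' build. Counts carry no molecular identifiers.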

Additional observations from a re-analysis of the deposited data

Results flagged for a closer look

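In groups of 5 libraries a value was marked where its gap to the nearest other, over the group's range, passed Dixon's 95% critical value, which chance does in about 1 group of 20; 7 of 51 sets tested were marked. Library 2 labelled Cep120 KO was marked for Tubb5 at 6713 CPM, for Tuba1b at 4740 CPM and for the beta sum at 8404 CPM. Tubb5 made up 79.9% of the beta sum in CPM and 71.0% in TPM in that library, both marked. Library 6 labelled Cep120 KO was marked for a low Tubb3 share of the beta sum, 0.103% in CPM and 0.129% in TPM.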

How the results depend on the processing

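Of the 10 members, 2 were called in the comparison of libraries labelled Cep120 KO with their controls. The share of all genes called, 14.7% there, moved with the setting and follows each count. There were 7 with limma-voom (39.5%), 6 with all 6 controls pooled (22.0%) and 4 with limma-trend on the deposited log2 values (18.9%; median of all genes 0.45). There was 1 with length and GC offsets (1.67%), with libraries 4 and 5 summed (8.32%) or without libraries 6 and 7 (6.41%), and 0 in a separate fit (0.0%) or with library 2 alone (0.0278%). Leaving out one library gave 0 to 7 (0.0112 to 34.0%). For the difference of effects limma-voom gave 5 in place of 0 (26.0%), and leaving out one library 0 to 4 (0.0 to 18.7%). Between the controls a separate fit gave 1 in place of 0 (0.927%, against 0.124%). With 75-base windows the median shared sequence was 42.0%, against 49.2% with 50-base windows.

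Signs turned in the Cep120 line with library 2 alone for Tuba1a (0.36), Tuba1c (0.029), Tubb2b (0.52), Tubb4b (0.004) and Tubb5 (0.43). Tubb2b turned also in limma on TPM (0.32), limma-trend on log2 values (0.065) and without libraries 6 and 7 (0.14). In the Pkd1 line, where all these values are near 0, Tuba1a turned with length and GC offsets (-0.011), limma on TPM (-0.061), limma-trend (-0.002) and limma-voom (-0.006), Tuba1c in limma on TPM (-0.011), and Tubb2b with offsets (-0.009), in limma on TPM (-0.072) and in limma-trend (-0.025). Leaving out one library turned Tuba1a, Tuba1c, Tubb2a and Tubb2b there, over ranges of -0.07 to 0.191, -0.052 to 0.231, -0.244 to 0.103 and -0.022 to 0.046. The cause was not tested.

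Replicate numbers do not pair the Pkd1-line libraries: deviations of same-numbered libraries correlated at -0.045, -0.029 and -0.124. With a replicate block 0 members and 0 genes were called, and Tubb5 stood at -0.43 (edgeR adjusted p = 0.0972). The Cep120-line groups share 1 number, so no paired fit was made there.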

Other observations

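Reads given to 4 processed pseudogenes that share sequence with Tuba1b varied over a wide range across the libraries, in a pattern that crosses the groups. They were picked once their values were known. Gm3226, Gm14150, Gm5620 and Gm6682 summed to 242, 13.2, 14.5, 11.6 and 9.97 CPM in libraries 2, 4, 5, 6 and 7 labelled Cep120 KO, against 64.6, 24.3 and 173 CPM in their controls. They summed to 25.8, 122 and 407 CPM in Pkd1 KO, against 289, 46.4 and 186 CPM in the Pkd1-line controls. That is 0.410 to 9.28% of the Tuba1b value of the same library, so moving these reads to Tuba1b would change it by at most that share. Pkd1 KO library 3, at 9.28%, also had the highest Tuba1c value, 1595 CPM. The amino acid transporter gene Slc7a11, of which a transcript shares 102 windows of 50 bases with Tuba1a, stood at 37.2 CPM in library 2 labelled Cep120 KO and 51.9 CPM in Pkd1 KO library 3, against 0.645 to 1.60 CPM in libraries 4 to 7.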
